A study of Mus musculus with 11 samples.

Results

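The 7 genes described here mark the lateral wall of the cochlea, with its spiral ligament fibrocytes and their matrix: Coch, Otos, Otor, Pou3f4, Tbx18, Car3 and Slc26a4. They were picked by symbol, for what is known of their roles, from the 18667 genes listed by NCBI identifier, and all 7 were among the 16169 genes tested because their mean reached 0.1 FPKM (a read level scaled by transcript length and library size). RNA-Seq was run on whole cochleae of C57BL/6J mice aged 2 months, with 1 library from each individual cochlea. The 5 control libraries came from Atf6+/+ littermates, with both functional alleles of the unfolded protein response regulator ATF6. The 6 mutant libraries came from Atf6-/- mice, whose Atf6 gene has an early stop codon in exon 4 in every cell. Mice of both genotypes share the Cdh23 allele of C57BL/6J that is linked to age-related hearing loss, and the study used females and males without giving the sex of each library. The comparison asks how the absence of ATF6 changes RNA in the cochlea of mice that lose hearing.

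The spiral ligament is the connective tissue between the stria vascularis and the bony wall of the cochlea. Its fibrocytes take up potassium that has left the hair cells and pass it through gap junctions towards the stria, which secretes it into endolymph and so maintains the voltage that drives hair cells. Fibrocytes also lay down the matrix that anchors the ligament. Coch encodes cochlin, an abundant protein of that matrix, and dominant mutations in it cause progressive hearing and balance loss. Otos encodes otospiralin, a small secreted fibrocyte protein needed for hearing, and Otor encodes otoraplin, a secreted protein with an SH3-like domain first found in inner ear fibrocytes. Pou3f4 and Tbx18 encode transcription factors of the otic mesenchyme, and Pou3f4 mutations cause X-linked deafness. Car3 encodes a cytosolic carbonic anhydrase. Slc26a4 encodes pendrin, the chloride, iodide and bicarbonate exchanger mutated in Pendred syndrome, which sits in epithelial cells beside the ligament (root cells and the spiral prominence) and not in fibrocytes. The cochleae were not sorted, so the list marks a region of the tissue, and a lower value can mean fewer such cells or less RNA per cell, which cannot be told apart in these libraries.

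Atf6 itself followed the labels. It lay between 8.25 and 10.6 FPKM in the 5 Atf6+/+ libraries and between 3.83 and 4.59 FPKM in the 6 Atf6-/- libraries, a log2 fold change of -1.13 ± 0.0837 (SE; limma adjusted p = 5.17e-05). No read depth is known per library, apart from a stated 30 M reads each. FPKM summed to between 474616 and 537926 in Atf6+/+ and between 462005 and 502419 in Atf6-/- libraries. Markers of neutrophils and erythroid cells varied between cochleae, and the tissue that their RNA came from was not tested. Summed over 8 markers each, neutrophil genes spanned 249 to 3077 FPKM in Atf6+/+ and 90.0 to 1193 FPKM in Atf6-/- libraries, and erythroid genes spanned 4827 to 46393 and 2870 to 9375 FPKM. A bone marrow score, the mean log2 level of neutrophil, B cell and erythroid markers, was highest in Atf6+/+ replicates 3 (5.67) and 4 (4.80), and the genotype differences of the 7 genes, and of the listed genes that were called, are given with and without those libraries.

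The sequence just upstream of the start site is shown for 4 of the genes, because they span the range of base composition in the list and hold the 2 matches to a TATA box. RefSeq promoter windows of assembly GRCm38.p6 were matched for 6 of the 7 genes (all but Car3). The 250 bases before the start are printed 5′ to 3′ on the strand of the gene, with TATAAA in capitals where it occurs.
Coch (chr12:51593091-51593340, plus strand): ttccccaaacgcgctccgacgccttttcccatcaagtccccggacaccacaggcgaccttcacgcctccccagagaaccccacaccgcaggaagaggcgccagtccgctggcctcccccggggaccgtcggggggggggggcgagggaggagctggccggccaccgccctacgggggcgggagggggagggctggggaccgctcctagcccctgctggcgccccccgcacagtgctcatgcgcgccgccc
Otos (chr1:92648842-92649091, minus strand): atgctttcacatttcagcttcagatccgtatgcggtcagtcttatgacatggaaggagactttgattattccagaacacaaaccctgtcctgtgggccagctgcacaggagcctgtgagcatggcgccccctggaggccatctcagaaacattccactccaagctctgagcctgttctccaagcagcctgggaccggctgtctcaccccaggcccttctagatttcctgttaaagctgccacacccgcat
Otor (chr2:143078143-143078392, plus strand): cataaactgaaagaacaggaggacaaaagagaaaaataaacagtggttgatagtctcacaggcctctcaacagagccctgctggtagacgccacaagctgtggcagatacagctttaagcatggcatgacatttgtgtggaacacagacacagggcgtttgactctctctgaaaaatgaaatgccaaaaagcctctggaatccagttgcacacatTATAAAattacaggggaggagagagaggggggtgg
Slc26a4 (chr12:31559985-31560234, minus strand): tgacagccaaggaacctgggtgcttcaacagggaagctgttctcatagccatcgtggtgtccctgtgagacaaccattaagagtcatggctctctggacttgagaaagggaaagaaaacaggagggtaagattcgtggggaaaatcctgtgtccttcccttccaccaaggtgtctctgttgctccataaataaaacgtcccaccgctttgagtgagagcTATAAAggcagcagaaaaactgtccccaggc
The Coch window stood out by composition, with 74.8% G and C and 24 CpG dinucleotides, beside a median of 52.4% G and C over 32851 promoter windows. Otos had 54.0% G and C with 5 CpG, Otor 46.0% with 2 CpG and Slc26a4 49.6% with 4 CpG, and the windows of Pou3f4 and Tbx18 held 58.0% and 54.0% G and C. TATAAA, read on both strands, began 35 bases before the start of Otor and 31 bases before that of Slc26a4, and 12.4% of all windows held it. The POU octamer ATGCAAAT (in 1.6% of all windows), the T-box core GGTGTGA (3.33%), the ATF6 site TGACGTGG (0.563%), the endoplasmic reticulum stress element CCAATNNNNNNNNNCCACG (0.113%) and the amino acid response core TGATGNAAT (0.816%) had no match on either strand of the 6 windows, which says only that these letters are not in these 250 bases.

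Coch and Otos were among the most abundant transcripts of the cochlea. Coch ranked number 7 of all genes by mean FPKM. In Atf6+/+ replicates 1 to 5 it measured 2598, 2870, 2039, 2024 and 2571 FPKM, and in the 6 Atf6-/- libraries it ran from 2428 through a median of 3065 to 3731 FPKM. The 2 lowest values belonged to Atf6+/+ replicates 3 and 4, 4 of 6 Atf6-/- libraries lay above every Atf6+/+ library, and the genotypes overlapped. The mean was 2421 ± 374 FPKM (SD, n = 5) for Atf6+/+, against 3034 ± 427 FPKM (SD, n = 6) for Atf6-/-. Fits were made on log2 values after adding 0.1 FPKM. The log2 fold change was 0.33 (95% interval 0.028 to 0.63), 1.26-fold, with an unadjusted limma p of 0.0348, an adjusted p of 0.481 and an exact two-sided permutation p of 0.0325. Cochlin transcripts thus made up 0.486% of summed FPKM in Atf6+/+ and 0.634% in Atf6-/- libraries.

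Otos ranked number 17 of all genes. It measured 1563, 1680, 984, 1188 and 1846 FPKM in Atf6+/+ replicates 1 to 5, and from 1522 through 1809 to 2023 FPKM in Atf6-/- libraries. Replicates 3 and 4 of Atf6+/+ were again the lowest of all, the other 3 Atf6+/+ libraries lay inside the Atf6-/- range, and 3 of 6 Atf6-/- libraries lay above every Atf6+/+ library. The difference of 0.32 on the log2 scale (95% interval -0.027 to 0.67) did not pass at the unadjusted threshold (limma p = 0.0676, adjusted p = 0.520; exact permutation p = 0.0887). The coefficient of variation was 24.6% in Atf6+/+ and 11.96% in Atf6-/- libraries.

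Otor was far less abundant than its matrix companions. The Atf6+/+ replicates measured 52.2, 37.0, 22.6, 18.9 and 38.3 FPKM, and the Atf6-/- libraries ran from 22.4 through 36.1 to 54.7 FPKM. High and low libraries were found in both genotypes, and 1 Atf6-/- library exceeded the highest Atf6+/+ value. Its log2 fold change of 0.20 (95% interval -0.38 to 0.78; limma p = 0.465, adjusted p = 0.815; exact permutation p = 0.535) was the smallest of the 7.

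**Figure D1:**
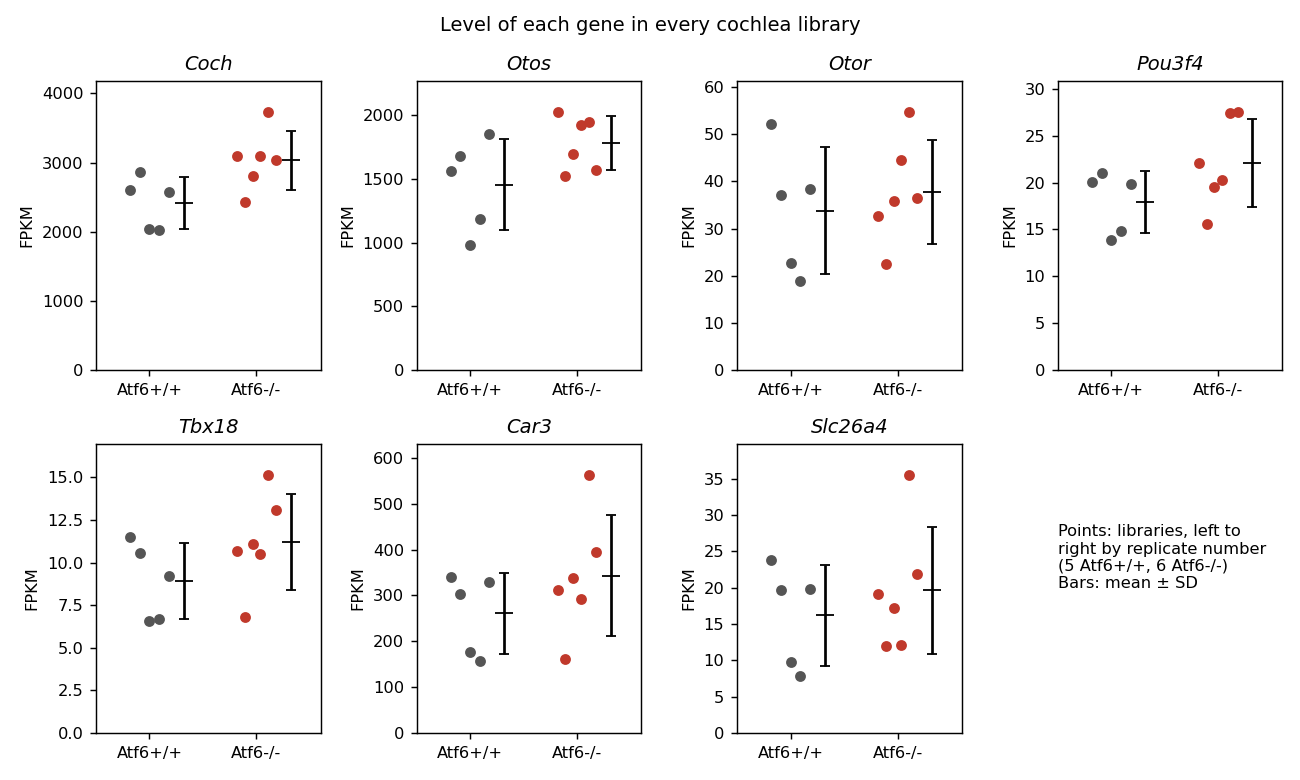
Each panel plots the FPKM of 1 gene (linear axis from 0) in the 5 Atf6+/+ and 6 Atf6-/- libraries, ordered by replicate number, with the mean and SD as bars. In every panel the genotypes overlap, and Atf6+/+ replicates 3 and 4 and Atf6-/- replicate 2 sit at the bottom.

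Both mesenchymal transcription factors were far less abundant than cochlin. Pou3f4 measured 20.0, 21.0, 13.8, 14.8 and 19.8 FPKM in Atf6+/+ replicates 1 to 5 and from 15.6 through 21.1 to 27.5 FPKM in Atf6-/- libraries. Atf6-/- replicates 5 (27.4 FPKM) and 6 (27.5 FPKM) stood above all others, and the remaining Atf6-/- libraries shared the Atf6+/+ range or lay close to its top. The log2 fold change was 0.29 (95% interval -0.051 to 0.64; limma p = 0.0888, adjusted p = 0.547; exact permutation p = 0.106). Tbx18, required for fibrocytes to form from otic mesenchyme, measured 11.5, 10.6, 6.58, 6.69 and 9.22 FPKM in Atf6+/+ and from 6.79 through 10.9 to 15.2 FPKM in Atf6-/- libraries. The lowest Atf6-/- value, of replicate 2, was next to those of Atf6+/+ replicates 3 and 4. Its log2 fold change was 0.32 (95% interval -0.11 to 0.76; limma p = 0.130, adjusted p = 0.584; exact permutation p = 0.182).

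Car3 and Slc26a4, which handle bicarbonate and other anions, varied most from cochlea to cochlea. Car3 measured 340, 304, 176, 156 and 330 FPKM in Atf6+/+ replicates 1 to 5 and from 161 through 325 to 563 FPKM in Atf6-/- libraries, so that the highest library held 3.61 times the level of the lowest. Atf6-/- replicate 5 stood alone at the top, and Atf6-/- replicate 2 lay between the 2 lowest Atf6+/+ libraries. The log2 fold change was 0.37 (95% interval -0.27 to 1.02; limma p = 0.232, adjusted p = 0.671; exact permutation p = 0.301). Slc26a4 measured 23.8, 19.7, 9.82, 7.79 and 19.8 FPKM in Atf6+/+ and from 11.98 through 18.1 to 35.6 FPKM in Atf6-/- libraries, a 4.56-fold span. The 2 lowest and the second highest library were Atf6+/+, and the highest was Atf6-/- replicate 5. Its log2 fold change was 0.30 (95% interval -0.43 to 1.03; limma p = 0.386, adjusted p = 0.772; exact permutation p = 0.455).

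Per transcript length, the order of mean levels over all 11 libraries was Coch (2755 FPKM), Otos (1631), Car3 (306), Otor (35.9), Pou3f4 (20.2), Slc26a4 (18.1) and Tbx18 (10.2). Neighbours in this order kept their places in each library with 1 exception. The ratio of Coch to Otos stayed between 1.39 and 2.07, and that of Otor to Pou3f4 between 1.27 and 2.60. Pou3f4 and Slc26a4 traded places, with a ratio from 0.772 to 1.89.

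The study used DESeq2 p values not above 0.05 and a cutoff that it gives as a fold change above 0.05. At an unadjusted rule modelled on this (limma p not above 0.05, with a log2 fold change of more than 0.05 either way), 1 of 7 genes was called. This was Coch, higher in Atf6-/-, and 0 of 7 were called lower. The call of Coch was lost in 6 of the 11 fits that left out 1 library (Atf6+/+ replicate 3 or 4, or Atf6-/- replicate 1, 4, 5 or 6), and without the filter on low values. Of all genes tested, 9.85% were called (4.48% higher and 5.37% lower), so 1 call in 7 genes is near the background. None of the 7 passed an adjusted p under 0.05, as 0.068% of all genes did (11 genes), and in none did the genotypes fail to overlap, as they did in 1.25% of all genes. All 7 point estimates were above 0, with a median log2 fold change of 0.32, whereas the median of all genes was -0.013 and 7324 of 16169 were above 0. Each estimate lay high among all genes, with 2.81% (Car3) to 7.76% (Otor) of genes showing a larger one. The 7 estimates are not separate pieces of evidence, because the same libraries were low or high in each gene.

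The variation between cochleae was shared by all 7 genes. Atf6+/+ replicates 3 and 4 and Atf6-/- replicate 2 were the 3 lowest libraries for 7 of 7 genes. Atf6-/- replicate 5 was among the 3 highest for 7 of 7 genes and the highest for 5. Averaged over the 7 genes on the log2 scale relative to the Atf6+/+ mean, the 3 low libraries stood at -0.44, -0.49 and -0.26, Atf6-/- replicate 5 stood at 0.82, and the other 7 libraries stood between 0.25 and 0.45. Atf6+/+ replicates 1, 2 and 5, at 0.39, 0.28 and 0.26, were thus level with Atf6-/- replicates 1, 3 and 4, at 0.32, 0.26 and 0.25. The genes differed in their spread within genotypes. The within-genotype SD on the log2 scale was 0.21 for Coch, 0.28 for Otos, 0.30 for Pou3f4, 0.38 for Tbx18, 0.51 for Otor, 0.57 for Car3 and 0.64 for Slc26a4, and between 77.0% (Coch) and 97.0% (Slc26a4) of genes at 1 FPKM or more had a smaller one.

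**Figure D2:**
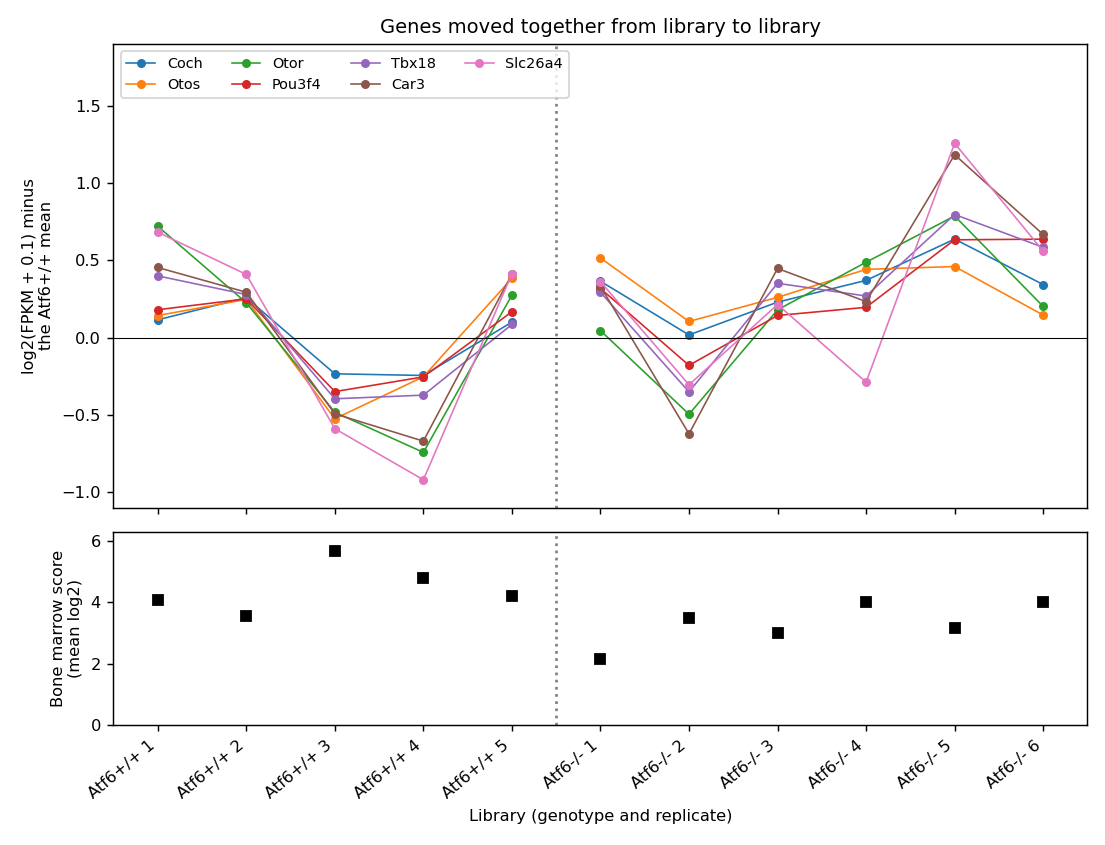
The upper panel plots, for each of the 11 libraries on the horizontal axis, the log2 level of each gene minus its Atf6+/+ mean, with 1 line per gene. The lower panel plots the bone marrow score of the same library. The 7 lines dip together at Atf6+/+ replicates 3 and 4 and Atf6-/- replicate 2 (means of -0.44, -0.49 and -0.26) and peak at Atf6-/- replicate 5 (0.82), while the marrow score is high in the first pair of low libraries only (5.67 and 4.80, and 3.48 in Atf6-/- replicate 2).

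Markers of other tissues moved with some of these libraries. The summed neutrophil level was 3077 FPKM in Atf6+/+ replicate 3 and 1213 FPKM in replicate 4, the 2 highest of all. Atf6-/- replicate 2, however, had a neutrophil sum of 334 FPKM, above the 249 FPKM of Atf6+/+ replicate 5, and a marrow score of 3.48, lower than in any of the 5 Atf6+/+ libraries, although it too was low in all 7 genes. Atf6+/+ replicate 5 had the highest erythroid sum (46393 FPKM) and the highest osteoblast sum (1881 FPKM, against 195 to 843 FPKM elsewhere), and all 7 genes lay above their Atf6+/+ mean there. Summed supporting cell markers were also low in the 3 low libraries, at 318, 321 and 407 FPKM, and summed chondrocyte markers were at 47.8, 56.4 and 59.9 FPKM, the lowest of their genotypes. Strial marginal cell markers were lowest in Atf6+/+ replicate 4 (176 FPKM, up to 415 FPKM elsewhere). The mean log2 level of 8 hair cell markers was lowest in the same 3 libraries, at 2.77, 2.82 and 3.33, and lay between 3.40 and 4.16 in the other 8. The summed hair cell level (1761 to 2172 FPKM) did not show this, being mostly Calb2 (1819 FPKM on average in Atf6+/+ libraries). The mean log2 level of 6 Schwann cell markers was 9.06, 9.27 and 9.19 in the 3 low libraries and lay between 9.11 and 9.40 in the others. Of 8 erythroid, 8 neutrophil and 8 B cell markers, 7, 4 and 3 were lower in Atf6-/- at the unadjusted p, with median log2 fold changes of -1.54, -1.52 and -0.79 and 0 markers called higher. Other lists held 2 of 5 adipocyte markers (Cidec and Cfd) and 1 of 8 skeletal muscle markers (Pvalb) lower, 0 of 8 osteoblast and 0 of 5 strial markers called, and as higher 2 of 8 hair cell (Ocm and Slc26a5), 2 of 6 chondrocyte (Acan and Sox9) and 1 of 6 supporting cell markers (Fgfr3). Of all genes, 5.37% were called lower and 4.48% higher, and 0 of these markers had a limma adjusted p under 0.05. At a median of 722 FPKM in Atf6+/+ libraries, Pvalb was nearly all of the skeletal muscle sum (median 730 FPKM). Its call was not read as a change in muscle tissue. Whether tissue carried along in dissection set the level of the 7 genes was not tested.

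The genotype estimates depended on these libraries. With the bone marrow score as a covariate, the log2 fold change of Coch was 0.16 (95% interval -0.22 to 0.54; limma adjusted p = 0.976) and that of Otos 0.0031 (95% interval -0.35 to 0.36; limma adjusted p = 0.999). The median of the 7 estimates was then 0.026, 5 of 7 were above 0, 0 of 7 were called, and 5.26% of all genes were called. Without Atf6+/+ replicates 3 and 4, Coch had 0.17 (95% interval -0.15 to 0.49; limma adjusted p = 0.873), Otos 0.063, Tbx18 0.070, Pou3f4 0.092, Car3 -0.013, Slc26a4 -0.20 and Otor -0.21, with a median of 0.063, 4 of 7 above 0 and 0 of 7 called, where 6.25% of all genes were called. Both libraries were among the 3 lowest for 7 of 7 genes, so leaving them out had to lower every estimate, whatever their marrow score. Leaving out Atf6-/- replicate 2 moved the values the other way, and 4 genes were then called, Coch and Pou3f4 (0.39 each), Tbx18 (0.46) and Car3 (0.57), at limma adjusted p = 0.402 to 0.444, while 1784 of all 16169 genes were called in that fit. Rescaling each library to a common sum (TPM) set the median over all genes at 0.043 in place of -0.013, gave 0.38 for both Coch (limma adjusted p = 0.361) and Otos (limma adjusted p = 0.392), and called both, with 1828 of all 16169 genes called. Under that scaling 76.0% of the calls among all genes were higher in Atf6-/-, compared with 45.5% for FPKM as deposited. Under none of the alternatives run did any of the 7 reach an adjusted p under 0.05 (lowest adjusted p 0.361, for Coch).

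**Figure D3:**
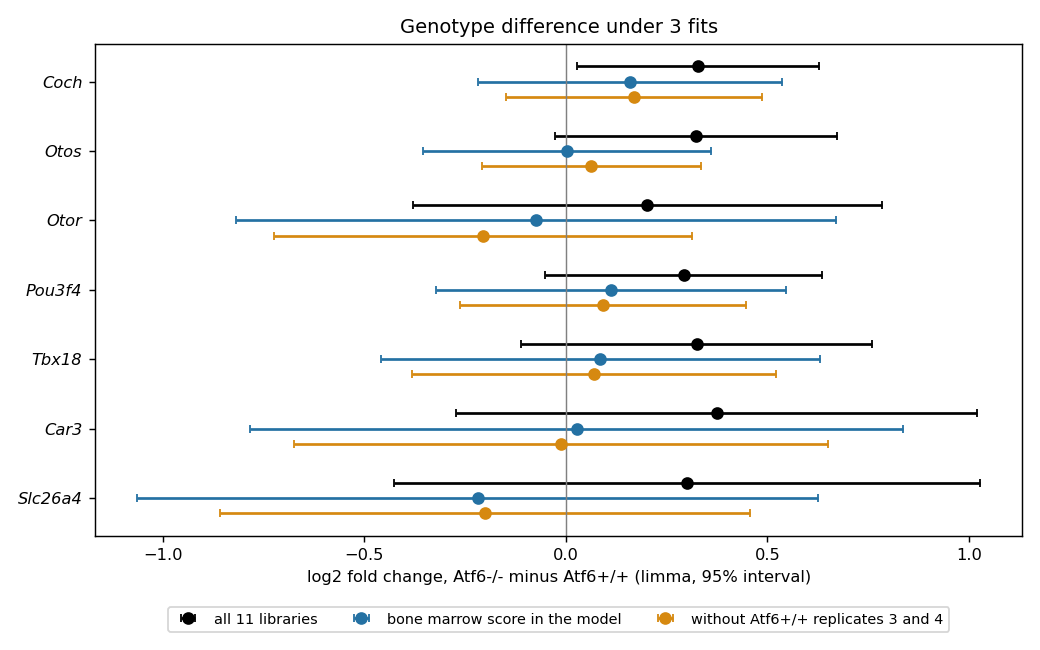
For each gene, points give the log2 fold change (Atf6-/- minus Atf6+/+) with its 95% interval from limma, with all 11 libraries, with the marrow score as a covariate, and without Atf6+/+ replicates 3 and 4. With all libraries the 7 estimates lie between 0.20 and 0.37 and only the interval of Coch (0.028 to 0.63) leaves out 0, and in the other fits the estimates lie between -0.22 and 0.17 and every interval includes 0.

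The proportions between the 7 genes were steadier than the levels in some pairs only. The within-genotype SD of the log2 ratio was below that of both genes in 11 of 21 pairs and above that of both in 0, and ran from 0.14 (Pou3f4 and Tbx18) to 0.50 (Otos and Slc26a4). For each of the 21 pairs, the log2 ratio within a library was compared between genotypes. The differences ran from -0.17 to 0.13, the genotypes overlapped in 21 of 21 pairs, and the exact two-sided permutation p ran from 0.264 to 0.991 (Benjamini-Hochberg adjusted 0.991 throughout). Without Atf6+/+ replicates 3 and 4 the differences ran from -0.30 to 0.37. The log2 ratio of Coch to Otos was 0.76 ± 0.20 (SD, n = 5) for Atf6+/+, against 0.77 ± 0.15 (SD, n = 6) for Atf6-/-, with an exact permutation p of 0.963. Coch and Pou3f4 kept the tightest proportion within Atf6+/+, with an SD of 0.074 on the log2 scale, but their SD within Atf6-/- was 0.18. Their log2 ratio differed by 0.036 between genotypes (exact permutation p = 0.706).

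With the genotype means removed, the 21 pairs had Pearson r of 0.64 to 0.97 over the 11 libraries (median 0.88) and Spearman rho of 0.58 to 0.98. All 21 values of r and 18 of 21 of rho had a permutation p under 0.05 after adjustment over 28 relations. Without the 2 libraries farthest from the median, r ran from 0.39 to 0.94. The 3 low libraries stood apart from the rest, and without them the pairs divided. Over the remaining 8 libraries, the 15 pairs that leave out Otos had r of 0.37 to 0.94 with a median of 0.70, whereas the 6 pairs with Otos had r of -0.054 to 0.50 with a median of 0.19. Those 3 libraries were chosen by the levels themselves, which narrows the range of every pair, and Otos and Coch had the 0.50. The highest r over 11 libraries were 0.97 for Tbx18 and Car3, 0.94 for Pou3f4 and Tbx18, 0.93 for Pou3f4 and Car3 and 0.92 for Car3 and Slc26a4, and over the 8 libraries these pairs had 0.89, 0.82, 0.79 and 0.94. The points of a pair share a library and its scaling, and the values describe the cochlea samples.

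Against the bone marrow score, r was negative for 7 of 7 genes, from -0.73 to -0.35. Only Otos passed the adjustment (r = -0.73, rho = -0.75, permutation p = 0.0102, adjusted p = 0.0168; r = -0.57 without the 2 farthest libraries). Coch had r of -0.51 (permutation p = 0.107). Over the 8 libraries without the 3 low ones, r lay between -0.52 (Otos) and 0.12 (Otor).

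**Figure D4:**
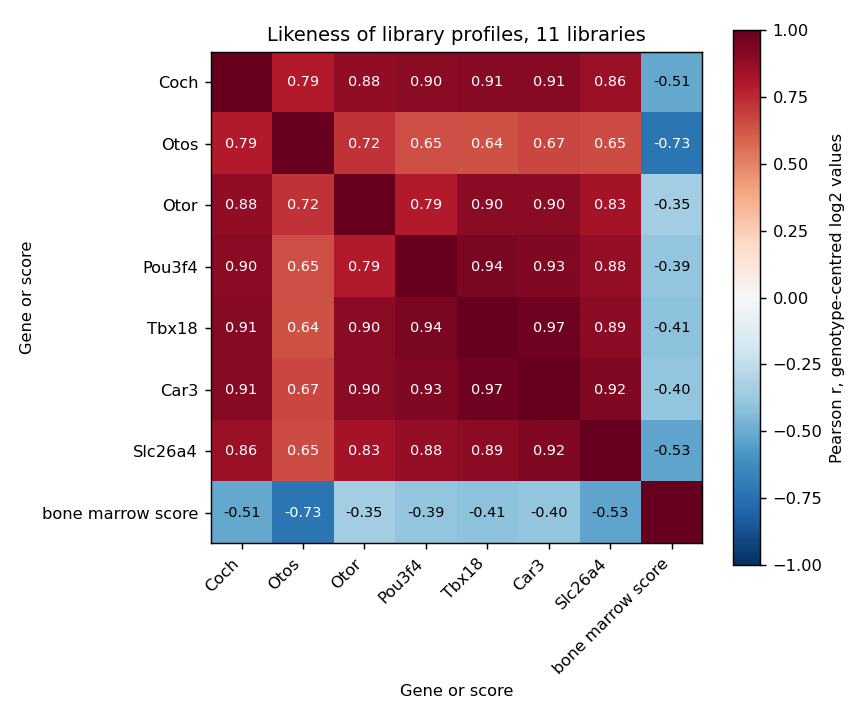
The grid gives Pearson r between the library profiles of each pair of genes, and between each gene and the bone marrow score, over 11 libraries with genotype means removed, with colour from blue (-1) to red (1). The 21 gene pairs lie between 0.64 and 0.97 and the row of Otos holds the lowest of them, while the marrow row is negative throughout, from -0.73 to -0.35.

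The genes whose profile over the 11 libraries was most like each of the 7 were then read from 13610 other genes averaging 1 FPKM or more. The median gene had r between -0.063 and 0.021 with each of the 7. Arhgef37 (r = 0.97), Chdh (0.96), Ctnnd1 (0.95), Ptprk (0.95) and Meltf (0.95) came closest to Coch. For Otos these were Tdrd12, Wnt7b, Aox3, P2rx2 and Pkp2, with r of 0.95 to 0.96, and P2rx2 encodes an ATP-gated channel of the cochlea that is mutated in a dominant deafness. Frzb (0.96), a secreted Wnt antagonist, led for Otor, followed by Meltf, Tbl1x, Tmem184a and Nectin3. Kif1c (0.99), a kinesin motor, led for Pou3f4, followed by Ptgfrn, Gpr146, Cutal and Slc44a2. The profile of Tbx18 was nearest to S1pr2 (0.99), a sphingosine phosphate receptor required for hearing in mice, followed by Kif13b, Cutal, Car3 and Meltf. Car3 was nearest to Ppfibp1 (0.98), with Prob1, Ppfibp2, S100b and Serinc2 behind it. Slc26a4 was nearest to Pgm5 (0.99), Epyc (0.98), which encodes the small proteoglycan epiphycan, Aif1l, Ildr1 and Sel1l3. Ildr1, a tight junction gene of tricellular contacts, is mutated in recessive deafness. Meltf was in the top 5 of 3 of the genes and Cutal in those of 2. Of the 7 themselves, Tbx18 took place 6 for Car3 and Car3 place 4 for Tbx18, whereas Otos took place 546 to 1510 for the other 6. The nearest of the 7 took place 26 for Pou3f4, 33 for Otor, 50 for Coch, 80 for Slc26a4 and 297 for Otos. Many genes outside the 7 were thus closer to each of them.

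Other genes of the ligament and of the same families were described by lists chosen for role. A signed value given alone or first in parentheses for one of these genes is its log2 fold change (Atf6-/- minus Atf6+/+), list medians are medians of these, and called again means the unadjusted rule. The 10 lists held 106 genes, of which 90 were tested, 10 were called higher and 4 lower (15.6%, beside 9.85% of all genes), with a median log2 fold change of 0.040 and 0 of 90 at an adjusted p under 0.05. Without Atf6+/+ replicates 3 and 4, 6 of the 90 were called, where 6.25% of all genes were called. Of these 6, 3 were among the 14, Dcn (-0.30), Slc26a10 (-0.71) and Slc26a11 (0.24), at limma adjusted p = 0.654 to 0.764. The other 11 kept their sign and were not called, with values for Slc26a5 (0.75), Pou2f3 (0.41), Epyc (0.37), Emilin2 (0.29), Vit (0.17), Kcnj10 (0.17), Pou3f3 (0.16), Kcnj16 (0.15), Car14 (0.14), Pou4f1 (-0.091) and Pou2f2 (-0.38). Of 14 ligament matrix genes, 1 was called higher and 1 lower, with a median of 0.064. Emilin2, an elastic fibre glycoprotein, had a mean of 24.1 ± 4.34 FPKM (SD, n = 5) for Atf6+/+ against 34.7 ± 12.7 FPKM (SD, n = 6) for Atf6-/- (0.48 on the log2 scale, limma adjusted p = 0.491). The small proteoglycan decorin gene, Dcn, the most abundant of this list, averaged 454 ± 63.1 and 385 ± 39.2 FPKM and was lower (-0.23, limma adjusted p = 0.505). Ccn2, a matricellular growth factor, had 0.23 (limma adjusted p = 0.613). Of the 14 estimates, 7 were above 0.

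Of 12 ion transport genes of fibrocytes, 1 was called higher and 0 lower, with a median of 0.16 and 10 of 12 above 0. Kcnj16, an inward rectifier potassium channel subunit, had a mean of 20.5 ± 7.38 FPKM (SD, n = 5) for Atf6+/+ against 29.4 ± 8.43 FPKM (SD, n = 6) for Atf6-/- (0.56, limma adjusted p = 0.505). The water channel gene Aqp1 had -0.34 (limma adjusted p = 0.518) and Car2, a second carbonic anhydrase of fibrocytes, 0.18 (limma adjusted p = 0.520). Atp1b1, a sodium pump subunit and the most abundant of the list, averaged 763 and 776 FPKM (0.023, limma adjusted p = 0.926). None of 13 regulators of the otic mesenchyme was called, with a median of 0.079, and Tbx15 (-0.35, limma adjusted p = 0.567) and Efnb2 (0.14, limma adjusted p = 0.586) were among those with the smallest p.

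Among pendrin-bearing epithelium and its partners, 2 of 8 tested genes were called higher and 0 lower (median 0.036), and Foxi1 and Atp6v1b1 averaged below 0.1 FPKM. Kcnj10, the potassium channel of strial intermediate and supporting cells that is lost in mice without pendrin, ranged from 32.03 to 52.95 FPKM in Atf6+/+ and from 51.5 to 64.0 FPKM in Atf6-/- libraries (0.37, limma adjusted p = 0.403; exact permutation p = 0.0130). Epyc ranged from 36.2 to 115 FPKM and from 85.1 to 219 FPKM (0.86, limma adjusted p = 0.431). Both overlapped between genotypes. Anxa1 had -0.43 and was not called (limma adjusted p = 0.505).

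The gene families of the 7 were read next. In the LCCL domain family, whose domain cochlin carries, 1 of 5 was called. This was Vit, encoding vitrin, at 3.89 ± 0.819 FPKM (SD, n = 5) for Atf6+/+ against 5.06 ± 0.834 FPKM (SD, n = 6) for Atf6-/- (0.38, limma adjusted p = 0.462), and Crispld2, the most abundant, had -0.038. In the MIA family, to which Otor belongs, 0 of 3 were called, with 0.053 for Mia2, 0.034 for Mia3 and 0.033 for Mia. Of 14 carbonic anhydrases 1 was called. The membrane-bound Car14 had a mean of 96.9 ± 20.6 FPKM (SD, n = 5) for Atf6+/+ against 125 ± 24.2 FPKM (SD, n = 6) for Atf6-/- (0.38, limma adjusted p = 0.475). Car9 had -0.44 (limma adjusted p = 0.567) at a mean of 0.19 FPKM in Atf6+/+ libraries.

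Of 8 SLC26 anion exchangers, 2 were called higher and 1 lower. Slc26a10 measured 0.91 to 1.63 FPKM in Atf6+/+ and 0.44 to 0.85 FPKM in Atf6-/- libraries, with no overlap (-0.90, limma adjusted p = 0.152). Slc26a11 measured 4.22 to 5.14 and 5.13 to 6.48 FPKM (0.26, limma adjusted p = 0.400), and Slc26a5, which encodes the outer hair cell motor prestin, 0.24 to 1.17 and 0.51 to 4.11 FPKM (1.197, limma adjusted p = 0.475). Slc26a7 was the most abundant of these and had -0.0023. Of 12 POU factors, 2 were called higher and 2 lower. Pou3f3, of the same POU class as Pou3f4, had a mean of 17.2 ± 2.53 FPKM (SD, n = 5) for Atf6+/+ against 21.0 ± 2.29 FPKM (SD, n = 6) for Atf6-/- (0.29, limma adjusted p = 0.430). Pou2f3 had 0.60 (limma adjusted p = 0.374) and Pou2f2, which is expressed in B cells, -0.62 (limma adjusted p = 0.411), beside the lower B cell markers given above, and the part of B cells in its level was not tested. The other lower call was Pou4f1 (-0.22, limma adjusted p = 0.476), a factor of spiral ganglion neurons named after its value was seen. Of 6 tested T-box factors 0 were called, with 0.23 for Tbx1 (limma adjusted p = 0.632) and 0.093 for Tbx2 (limma adjusted p = 0.862).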

How the data were processed

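RNA-Seq was run on 11 mouse cochlea libraries, 5 Atf6+/+ and 6 Atf6-/-. The authors extracted RNA with RNeasy kits, had stranded mRNA libraries sequenced on the DNBSEQ platform (paired-end 100 bp), aligned reads to GRCm39 with HISAT2 2.0.4 and deposited RSEM estimates as FPKM with 2 decimals, 1 column per library. The submitters' processing notes name RSEM 1.2.12 and the methods 1.2.18. Counts were not used here, so counting error is unknown. Rescaled values are called TPM and were computed here from the deposited FPKM.

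Levels were compared as log2(FPKM + 0.1), for genes averaging 0.1 FPKM or more, by limma 3.58.1 under R 4.3.3, with the trend option and genotype the only term, two-sided, with Benjamini-Hochberg adjustment over 16169 genes, and the fit was tested on simulated data. A fold change on this scale understates the change of low genes. Single genes were also given an exact two-sided permutation test over all 462 divisions into 5 and 6 libraries (smallest p 0.00216), and correlations by permutation with 100000 resamples. P values measure the spread between these libraries. Genes with paralogs may share reads.

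The 7 genes and all lists were chosen with earlier results of these data known. Named were the 7 genes, Atf6, in each list the 3 genes with the smallest p and the most abundant, and for each of the 7 the 5 most similar profiles. A few genes that this rule or the marker lists would name are not reported here. Alternatives were pseudocounts of 1 and 0.01, a bone marrow covariate, a replicate block, no filter or a mean of 1 FPKM, median-of-ratios or TPM scaling, robust variance and leaving out each library. Leaving out the 2 libraries of highest marrow score was chosen after seeing the data. Promoter windows came from RefSeq GRCm38.p6, a build other than that of the files. Scripts ran under Python 3.11.15 (scipy 1.17.1, pandas 2.3.3, numpy 2.4.6, matplotlib 3.10.9).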

Additional observations from a re-analysis of the deposited data

Results flagged for a closer look

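None of the 7 genes had a library that stood apart from its genotype by Dixon's criterion at 95%. Over 98 groups, each the libraries of 1 genotype for 1 gene, 7 had such a library, and chance gives about 1 in 20 groups. In Atf6+/+ libraries, Ccn2 reached 66.57 FPKM in replicate 5 (next 41.98), the haemoglobin gene Hba-a1 reached 19705.55 FPKM in replicate 5 (next 6829.41) and the adipocyte gene Fabp4 reached 46.96 FPKM in replicate 4 (next 3.65). In Atf6-/- libraries, Car2 reached 119.91 FPKM in replicate 5 (next 100.75), Slc26a10 reached 0.85 FPKM in replicate 3 (next 0.57), the neutrophil gene S100a9 reached 309.04 FPKM in replicate 4 (next 104.43), and Anxa1 was low in replicate 2, at 13.44 FPKM (next 22.88). Atf6-/- replicate 5, where Car2 stood out, was also the highest library for 5 of the 7 genes, and Atf6-/- replicate 2, where Anxa1 was low, was among the 3 lowest for all 7.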

How the results depend on the processing

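Pseudocounts of 1 and 0.01, a mean of at least 1 FPKM, median-of-ratios scaling and robust variance kept the direction and the call of all 7 genes. Coch, with limma, lost its call without a filter (0.33, with 1717 of 18658 genes called), with the marrow score (0.16) and without the 2 libraries of highest marrow score (0.17), each of which left 0 of 7 genes called, and the latter pair left 851 (6 at an adjusted p under 0.05) and 1010 of all genes and 8 and 6 of the 90 listed genes. The signs of Otor (-0.073 and -0.21) and Slc26a4 (-0.22 and -0.20) turned under both marrow settings, and that of Car3 (-0.013) without the 2 libraries. The cause was not tested. TPM added Otos (0.38), making 2 of 7. Replicate numbers did not pair the libraries (correlations of same-numbered deviations -0.21 to 0.12), and the replicate block, which drops Atf6-/- replicate 6, gave 0.32 for Coch, 0 of 7 called, 1078 of all genes called and 4 genes at an adjusted p under 0.05.

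Leaving out each library in turn gave 1196 to 1865 calls among all genes (8 to 13 at an adjusted p under 0.05), 0 to 4 among the 7, 9 to 18 among listed genes, and a median of 0.21 to 0.39 for the 7. Ranges were 0.27 to 0.39 for Coch, 0.19 to 0.42 for Otos, 0.017 to 0.38 for Otor, 0.21 to 0.39 for Pou3f4, 0.23 to 0.46 for Tbx18, 0.21 to 0.57 for Car3 and 0.071 to 0.47 for Slc26a4. Coch was not called without Atf6+/+ replicate 3 or 4 or Atf6-/- replicate 1, 4, 5 or 6. Otos was called without Atf6+/+ replicate 2 or 5, and Pou3f4, Tbx18 and Car3 without Atf6-/- replicate 2. Depth per library is unknown, which limits the low genes most.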
